A study of Homo sapiens with 8 samples.

Results

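A set of 9 regulators and targets of the tumour suppressor p53 was followed in MV4-11 cells, a human acute myeloid leukemia (AML) line that carries FLT3-ITD and MLL-AF4, under a CDK4/6 inhibitor and an LSD1 inhibitor. The genes (MDM2, MDM4, AEN, ZMAT3, FAS, TNFRSF10B, BTG2, PHLDA3 and SESN1) were taken by symbol from a table of 26364 genes, and all 9 were among the 14151 genes tested. Polyadenylated RNA was sequenced in 8 libraries, 2 for each of 4 groups: the DMSO vehicle, 5 µM tranylcypromine (TCP, an LSD1 inhibitor), 0.5 µM palbociclib (Palbo, a CDK4/6 inhibitor), and both drugs at these doses (PTCP, here the combination), over 4 days. All groups are the same line, and per the methods such treated cells were cocultured with human bone marrow stromal cells (HS-5), which the sample labels do not mention. By the same methods palbociclib was given alone on the first day and the second drug was added after it. The 10 AML markers on the list (among them CD33, PTPRC and FLT3) summed to 999 to 1697 TPM over the 8 libraries. None was below 1 TPM throughout, although KIT was at most 1.48 TPM. At an adjusted p below 0.05 (limma), 5 were higher and 4 lower under palbociclib, beside 14.8% and 30.2% of all genes. In the combination these were also 5 and 4, beside 15.9% and 37.6%. Mean FLT3 was 235 TPM in DMSO and 82.3 TPM under palbociclib, and mean CD68 was 113 and 676 TPM. The sources used here do not say whether the 2 replicates of a group were separate cultures, so the p-values measure only the spread between these libraries. In bulk RNA, fewer cells of a type and less RNA per cell cannot be told apart. Palbo replicate 2 stood apart in its stromal markers, which summed to 185 TPM against 25.9 to 70.3 TPM in the other 7 libraries. The calls of the named genes that were lost without it are given, except for TIGAR and DRAM1 against palbociclib alone. Levels are in TPM, a scaled transcript abundance that corrects for gene length and sums to the same total in every library. Changes are log2 fold changes on the log2(TPM + 1) scale and understate the change of low genes. A gene "rose" or "fell" where limma gave an adjusted p below 0.05, and was a differentially expressed gene (DEG) where the change was at least 1 in size and the adjusted p was below 0.01.

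The protein p53 is a transcription factor that is kept low by MDM2, a ubiquitin ligase, and by its partner MDM4. MDM2 is itself a p53 target, which closes a negative feedback loop. When p53 is active it induces genes for cell cycle arrest (BTG2), for death receptors at the cell surface (FAS and TNFRSF10B, the latter a receptor of the ligand TRAIL), and for other arms of the response. Among the latter are AEN, a nuclease linked to apoptosis, ZMAT3, an RNA-binding protein, PHLDA3, which opposes AKT signalling, and SESN1, a sestrin that restrains mTORC1. These genes also answer to other factors, so a change in their RNA is not a reading of p53 protein.

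A p53 consensus was present near a RefSeq start site in 4 of the 9 genes, and the sites are printed because the holders did not move together. The p53 consensus was searched on both strands as a pair of 10-base elements in a row with no spacer, the core C and G of each required and at most 3 other mismatches, a setting chosen with the windows in view. Windows ran from 250 bases before to 50 bases after each start (RefSeq, GRCh38.p14). Of the 9 members 7 had a window, and 4 of these 7 held a match, beside 373 of 27305 genes (1.37%) and 392 of 35116 windows (1.12%). With at most 2 mismatches 3 of the 7 held one, SESN1 no longer, beside 98 of 27305 genes (0.359%). The members were picked as regulators and targets of p53, so these shares describe them and test nothing. The capitals mark the 20-base match.
MDM2: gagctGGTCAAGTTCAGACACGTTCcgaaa
AEN: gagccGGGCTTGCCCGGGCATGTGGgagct
FAS: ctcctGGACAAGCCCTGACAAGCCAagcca
SESN1: cgtctGGACAAGTCTCCACAAGTCAgaaat

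Each run occurred once on its chromosome of GRCh37, the build to which the authors aligned (hg19). The MDM2 site, with 2 mismatches, lies on the plus strand at chr12:69202703-69202722, 101 and 94 bases before a pair of inner starts, in an intron of 3 of the 21 protein-coding transcripts and in no exon. The AEN site, with 2 mismatches, is at chr15:89164537-89164556 on the plus strand, 31 bases upstream of the annotated gene. In FAS the site has 2 mismatches and lies at chr10:90751066-90751085 on the plus strand, in an intron of all 4 protein-coding transcripts, although it overlaps 2 exons of other transcripts. The SESN1 site, with 3 mismatches, is at chr6:109330221-109330240 on the minus strand, 85809 bases inside the gene and in an intron of 2 of its 4 protein-coding transcripts. MDM4, ZMAT3 and BTG2 had windows without a match. A match is a description of letters, and the absence of one says only that these letters were not in that window. Under palbociclib FAS and SESN1 rose, AEN fell and MDM2 did not pass the test, as given below.

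The remaining members lie on GRCh37 at chr1:204485507-204527248 (MDM4, plus strand), chr3:178677909-178790003 (ZMAT3, minus strand), chr8:22877646-22926544 (TNFRSF10B, minus strand), chr1:203274619-203278730 (BTG2, plus strand) and chr1:201433406-201438365 (PHLDA3, minus strand). MDM2 itself spans chr12:69201957-69239324, AEN chr15:89164568-89175512, FAS chr10:90750414-90775542 and SESN1 chr6:109305512-109416049.

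In the DMSO libraries TNFRSF10B was the most abundant member (44.8 and 36.5 TPM), followed by AEN, MDM2, MDM4 and BTG2. SESN1, PHLDA3 and ZMAT3 came next, between 5.73 and 8.31 TPM, where PHLDA3 overlapped each of the other two while SESN1 lay above ZMAT3, and FAS was last at 0.543 and 0.534 TPM. Under palbociclib and under the combination the order changed at the top: BTG2 was first, then came TNFRSF10B and MDM2, AEN and MDM4 overlapped, and SESN1, ZMAT3, PHLDA3 and FAS followed. FAS reached 1 TPM only in the 4 libraries with palbociclib, and passed the filter on low values (1 TPM in 2 libraries) through them alone. A difference in FAS between those groups was therefore partly built into its being tested. The other 8 members were above 1 TPM in all 8 libraries.

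**Figure D1:**
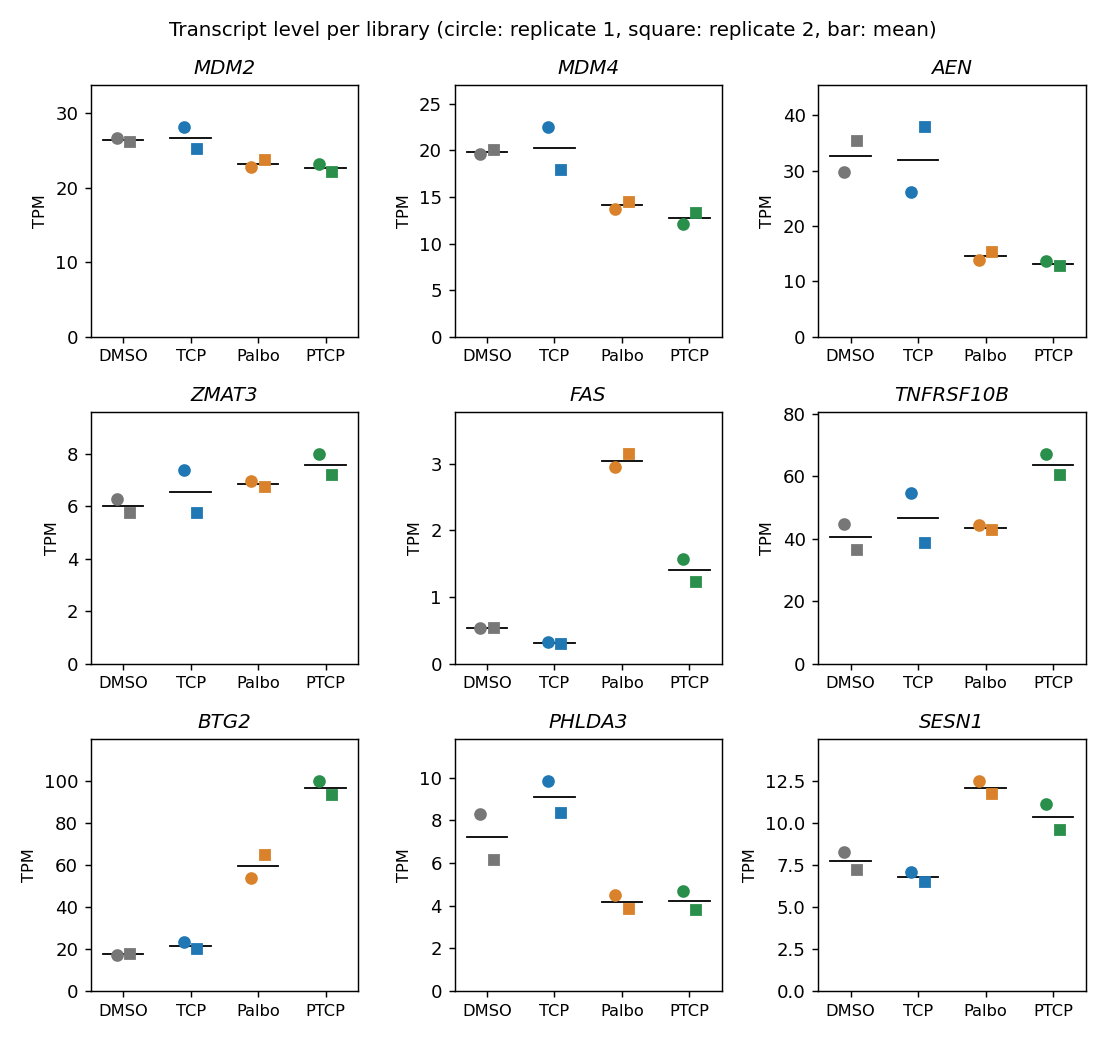
Levels of the 9 genes in TPM (vertical axis, from 0, a scale for each gene) in the 4 groups. Circles are replicate 1, squares replicate 2 and bars the mean of the 2 libraries. BTG2 runs from 17.0 TPM in DMSO to 99.8 TPM in the combination, whereas MDM2 stays between 22.1 and 28.2 TPM.

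TCP alone called none of the 9 genes, either as a DEG or at an adjusted p below 0.05 at any fold. Over all genes limma called 0.0565% as DEGs higher and 0% lower under TCP, and 0.29% higher and 0.141% lower at an adjusted p below 0.05. At an unadjusted p below 0.05 there was 1 member, BTG2, beside 8.77% of all genes. BTG2 stood at 17.0 and 17.7 TPM in DMSO and 23.5 and 19.8 TPM under TCP. Both TCP libraries were above both DMSO libraries, as in 12.4% of all genes tested. The change was 0.30 (95% interval 0.01 to 0.58, adjusted p = 0.542). For MDM2 the interval was narrow, at -0.19 to 0.22 around a change of 0.02, and for AEN it was wide, at -0.46 to 0.38 around -0.04. The 9 changes had a median of 0.02, beside -0.04 over all genes tested.

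Palbociclib alone changed 6 of the 9 genes, 3 up and 3 down, beside 14.8% of all genes that rose and 30.2% that fell. BTG2, FAS and AEN were DEGs, that is 2 of 9 higher beside 4.54% of all genes and 1 of 9 lower beside 4.56%. FAS is in these counts although it passed the filter only through libraries with palbociclib, so its call is partly built in. The median change was 0.11 for the 9 genes and -0.16 for all genes tested, so that a change of about -0.16 marked a gene at the middle of the table. Over all genes 49.9% of DEGs were higher, and 60.9% after quantile normalization, while of the genes with an adjusted p below 0.05 the share that rose was 32.8% and then 45.4%.

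BTG2, an antiproliferative gene, had the largest change of the 9 on the log2(TPM + 1) scale. Its level was 17.0 and 17.7 TPM in DMSO and 53.9 and 65.0 TPM under palbociclib, a 3.42-fold ratio of means. The groups were far apart, with a log2 fold change of 1.71 (SE 0.12, adjusted p = 0.000147). FAS, the receptor that starts the extrinsic apoptosis pathway, was at 0.543 and 0.534 TPM in DMSO and at 2.95 and 3.14 TPM under palbociclib, which is 5.66-fold in TPM. It remained a lowly expressed gene, and its change on the log2(TPM + 1) scale was 1.39 (SE 0.17, adjusted p = 0.00089), and 2.30 with a pseudocount of 0.1 in place of 1. The other death receptor among the 9 genes did not follow. TNFRSF10B was at 44.8 and 36.5 TPM in DMSO and 44.5 and 42.8 TPM under palbociclib. These groups overlapped, with a change of 0.11 (95% interval -0.30 to 0.51, adjusted p = 0.645). SESN1 rose from 8.31 and 7.22 TPM to 12.5 and 11.7 TPM (0.58, SE 0.12, adjusted p = 0.00831), a call that was lost without DMSO replicate 2 (0.49, adjusted p = 0.0562).

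AEN fell from 29.8 and 35.3 TPM in DMSO to 13.8 and 15.2 TPM under palbociclib. The ratio of means was 0.445 and the change -1.11 (SE 0.18, adjusted p = 0.00274). It was no longer a DEG without either DMSO or either Palbo library (adjusted p = 0.0113, 0.0224, 0.0193 and 0.0168), nor after quantile normalization (-0.97) where its size was below 1, but it passed an adjusted p below 0.05 in each of these. PHLDA3 fell from 8.31 and 6.13 TPM to 4.48 and 3.82 TPM (-0.66, SE 0.18, adjusted p = 0.0211). That call was lost without DMSO replicate 1 (-0.47, adjusted p = 0.12) and without Palbo replicate 2 (-0.57, adjusted p = 0.113).

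Of the 2 p53 inhibitors, MDM4 fell and MDM2 did not pass the test. MDM4 was at 19.6 and 20.1 TPM in DMSO and 13.7 and 14.5 TPM under palbociclib (-0.47, SE 0.12, adjusted p = 0.0204). Its call was lost after quantile normalization (-0.32, adjusted p = 0.0559) and without any 1 of the DMSO or Palbo libraries (adjusted p between 0.0689 and 0.0916). MDM2 was at 26.6 and 26.1 TPM in DMSO and 22.8 and 23.7 TPM under palbociclib. Its change of -0.18 (95% interval -0.38 to 0.03, adjusted p = 0.145) was close to the median of all genes (-0.16) and was -0.02 after quantile normalization. The MDM4 to MDM2 ratio of TPM was 0.738 and 0.769 in DMSO, 0.800 and 0.709 under TCP, 0.602 and 0.613 under palbociclib, and 0.523 and 0.599 in the combination. Every library with palbociclib was thus below every library without it in this ratio, which any scaling of whole libraries leaves as it is. How many other pairs of genes do the same was not computed. Of single genes, 49.7% of those tested were lower in both Palbo libraries than in both DMSO libraries. ZMAT3, at 6.27 and 5.73 TPM in DMSO and 6.99 and 6.74 TPM under palbociclib, did not pass (0.17, adjusted p = 0.359).

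**Figure D2:**
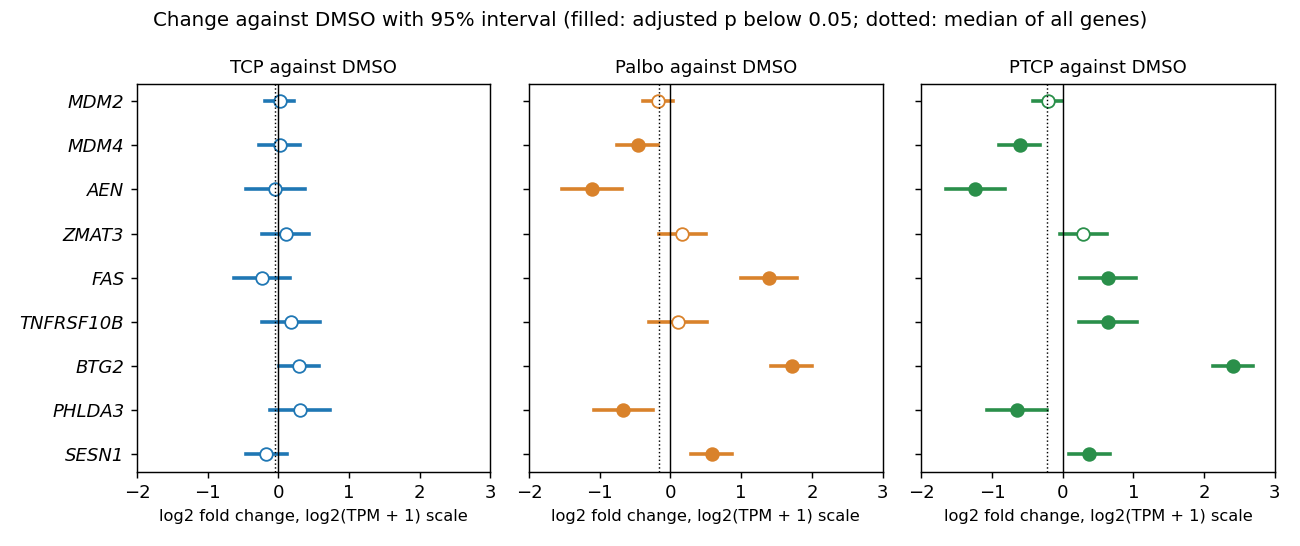
Log2 fold changes of the 9 genes against DMSO on the log2(TPM + 1) scale (horizontal axis) under TCP, palbociclib and the combination. Points are estimates from 2 libraries a group, filled where the adjusted p is below 0.05; lines are 95% intervals and the dotted line is the median of all genes (-0.04, -0.16 and -0.22). BTG2 lies farthest right under palbociclib (1.71) and the combination (2.41), and AEN farthest left (-1.11 and -1.24).

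Against DMSO, the combination changed 7 of the 9 genes, 4 up and 3 down, beside 15.9% of all genes that rose and 37.6% that fell. Of these, BTG2 and AEN were DEGs, that is 1 of 9 higher beside 5.87% of all genes and 1 of 9 lower beside 7.82%. The median change was 0.30 for the 9 genes and -0.22 for all genes tested. Over all genes 42.8% of DEGs were higher, and 56.1% after quantile normalization, and the share that rose among genes with an adjusted p below 0.05 was 29.8% and then 44.3%. BTG2 reached 99.8 and 93.5 TPM in the combination, 5.57-fold the mean in DMSO, with a change of 2.41 (SE 0.12, adjusted p = 2.88e-05). AEN was at 13.7 and 12.8 TPM, 0.406 of the mean in DMSO, with a change of -1.24 (adjusted p = 0.00129). Without DMSO replicate 2 or PTCP replicate 2 AEN was no longer a DEG, and its highest adjusted p over the leave-one-out fits was 0.0127.

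Both death receptors rose in the combination. FAS was at 1.58 and 1.23 TPM, 2.61-fold its mean in DMSO (0.64, adjusted p = 0.0159, and 1.23 with a pseudocount of 0.1). As under palbociclib, the FAS call is partly built in by the filter on low values. TNFRSF10B was at 67.1 and 60.4 TPM, above each of the other 6 libraries (0.64, adjusted p = 0.0175). Both combination libraries were above both DMSO libraries in 26% of all genes tested. SESN1 rose as well, to 11.1 and 9.60 TPM (0.38, adjusted p = 0.0371). These 3 were the weakest calls that went up. FAS lost its call without DMSO replicate 1 (adjusted p = 0.0598), DMSO replicate 2 (adjusted p = 0.0609) or PTCP replicate 1 (adjusted p = 0.0869). TNFRSF10B lost it without DMSO replicate 2 (adjusted p = 0.0993), PTCP replicate 1 (adjusted p = 0.0923) or PTCP replicate 2 (adjusted p = 0.052), and SESN1 kept it in 2 of 8 such fits, those without a TCP library (change between 0.28 and 0.47 over the 8).

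MDM4 fell in the combination too, to 12.1 and 13.3 TPM (-0.61, adjusted p = 0.00569), and PHLDA3 fell to 4.70 and 3.77 TPM (-0.64, adjusted p = 0.0200). MDM4 kept its call without each library in turn, whereas PHLDA3 lost it without DMSO replicate 1 (-0.45, adjusted p = 0.118) or PTCP replicate 2 (-0.52, adjusted p = 0.116). MDM2 was at 23.1 and 22.1 TPM, with a change of -0.21 (95% interval -0.42 to -0.003, adjusted p = 0.0805) that was again close to the median of all genes and read -0.00 after quantile normalization. ZMAT3 was at 8.0 and 7.19 TPM. Its change of 0.30 did not pass (adjusted p = 0.115) but did after quantile normalization (0.43, adjusted p = 0.0175).

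Adding TCP to palbociclib changed 1 of the 9 genes at an adjusted p below 0.05. Against palbociclib alone, the combination had no DEG among the 9, beside 0.459% of all genes higher and 0.0424% lower. Only 1 member, BTG2, passed an adjusted p below 0.05, beside 2.05% of all genes that rose and 1.44% that fell, and 3 passed an unadjusted p below 0.05, beside 17.5% of all genes. Over all genes, 58.7% of those with an adjusted p below 0.05 rose, and 69.6% after quantile normalization. BTG2 was at 53.9 and 65.0 TPM under palbociclib and 99.8 and 93.5 TPM in the combination, a ratio of means of 1.63 and a change of 0.70 (SE 0.12, adjusted p = 0.0314). The call was lost without any 1 library of DMSO, palbociclib or the combination, with adjusted p up to 0.202 and changes between 0.57 and 0.83. FAS went the other way, from 2.95 and 3.14 TPM to 1.58 and 1.23 TPM, a ratio of 0.461 and a change of -0.75 that did not pass (adjusted p = 0.0638). It did pass with the replicate number as a block (adjusted p = 0.0434), with no filter on low values (adjusted p = 0.0368) and with no mean-variance trend (adjusted p = 0.0168). TNFRSF10B was at 44.5 and 42.8 TPM and then 67.1 and 60.4 TPM (0.54, adjusted p = 0.168, and adjusted p = 0.0355 with the block). With the block 2 of the 9 genes rose and 1 fell, beside 536 and 719 of all 14151 genes. SESN1, at 12.5 and 11.7 TPM and then 11.1 and 9.60 TPM, had a change of -0.21 (adjusted p = 0.443).

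Whether the effect of TCP differed with palbociclib present was tested as an interaction. In limma 0 of 9 genes passed at an adjusted p below 0.05, as did 0% of all genes, and 0 of 9 at an unadjusted p below 0.05, beside 6.39% of all genes. BTG2 had the smallest p, with an interaction of 0.40 (95% interval -0.00 to 0.80, limma adjusted p = 0.787), and for FAS it was -0.52 (limma adjusted p = 0.82).

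**Figure D3:**
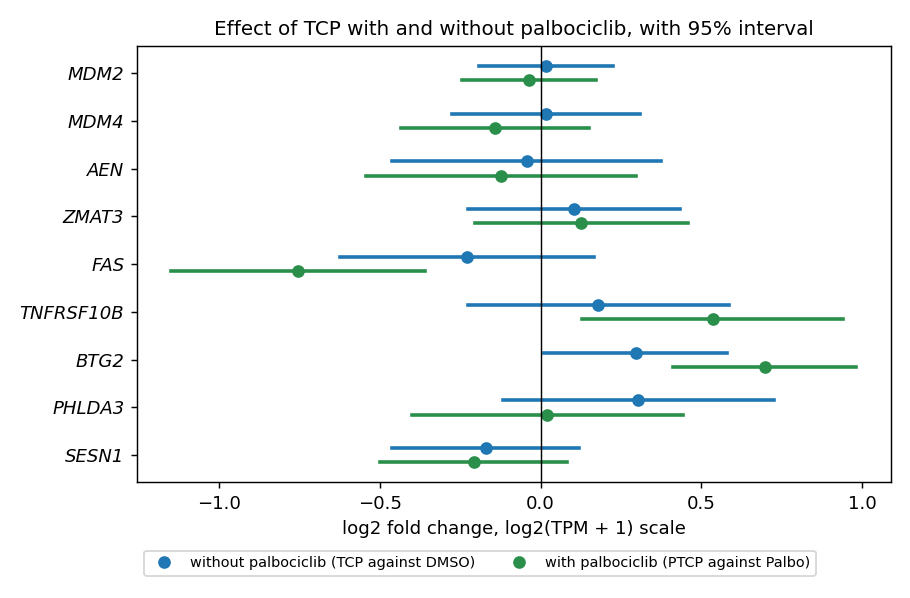
Effect of TCP on the 9 genes as log2 fold changes on the log2(TPM + 1) scale (horizontal axis), without palbociclib (TCP against DMSO) and with it (PTCP against Palbo). Points are estimates from 2 libraries a group and lines 95% intervals. With palbociclib present, BTG2 (0.70) and TNFRSF10B (0.54) lie to the right and FAS (-0.75) to the left of 0.

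Against TCP alone, the combination changed 6 of the 9, 3 up and 3 down, beside 16.5% of all genes that rose and 33.8% that fell. BTG2 (2.11, adjusted p = 4.7e-05) and AEN (-1.19, adjusted p = 0.00167) were DEGs, beside 5.46% of all genes higher and 6.7% lower. Over all genes 44.9% of DEGs were higher, and 55.8% after quantile normalization, and the share that rose among genes with an adjusted p below 0.05 was 32.8% and then 45.4%. FAS rose (0.87, adjusted p = 0.00487, and 1.86 with a pseudocount of 0.1) from 0.333 and 0.291 TPM, and SESN1 rose (0.55, adjusted p = 0.00952) from 7.08 and 6.48 TPM. Here too the FAS call is partly built in by the filter on low values. MDM4 (-0.62, adjusted p = 0.00554) and PHLDA3 (-0.95, adjusted p = 0.00444) fell. AEN was not a DEG without TCP replicate 2, PTCP replicate 1 or PTCP replicate 2, and SESN1 lost its call without PTCP replicate 1 (0.45, adjusted p = 0.0653). MDM2 (-0.23, adjusted p = 0.0671) and TNFRSF10B (0.46, adjusted p = 0.0591) passed with the replicate block, at adjusted p = 0.0416 and 0.0113. TNFRSF10B also passed after quantile normalization (0.61, adjusted p = 0.0212), after median-ratio scaling (0.66, adjusted p = 0.0126) and without TCP replicate 1 (adjusted p = 0.00961), and MDM2 without TCP replicate 2 (adjusted p = 0.0377) but at -0.07 after quantile normalization it did not (adjusted p = 0.519). This comparison shares its combination libraries with the others, and is given for its own values.

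A wider list of 37 other p53 targets held genes that rose and genes that fell. Of these, 32 were tested; EDA2R, SPATA18, CYFIP2, PERP and CMBL were below 1 TPM in all libraries. Under palbociclib 5 rose and 11 fell, beside 14.8% and 30.2% of all genes, and in the combination 8 rose and 13 fell, beside 15.9% and 37.6%. Under palbociclib these are shares near those of all genes. The list had median changes of -0.29 and -0.17, beside -0.16 and -0.22 over all genes. After quantile normalization these were 6 and 7 under palbociclib, and 9 and 7 in the combination. The DEGs under palbociclib were TP53INP1, NINJ1, DRAM1 and SUSD6, which were higher, and PMAIP1 and SESN2, which were lower. Over all genes 4.54% were DEGs higher and 4.56% lower. Without Palbo replicate 2, PMAIP1 (-2.15, adjusted p = 0.027) and SESN2 (-2.02, adjusted p = 0.0127) were no longer DEGs, and neither was PMAIP1 without DMSO replicate 1 (adjusted p = 0.0203) or Palbo replicate 1 (adjusted p = 0.0127), although each passed an adjusted p below 0.05. TP53INP1, a cofactor linked to autophagy, rose from 1.40 ± 0.357 TPM to 12.6 ± 1.45 TPM (SD, n = 2), a change of 2.50 (adjusted p = 0.000419, limma). NINJ1, which acts in rupture of the plasma membrane at cell death, rose by 1.45, DRAM1, a regulator of autophagy, by 1.23 and SUSD6 by 1.15. PMAIP1 (NOXA), a pro-apoptotic BCL2 family member, fell from 129 ± 52.6 TPM to 23.2 ± 5.36 TPM (SD, n = 2), a change of -2.38 (adjusted p = 0.00322, limma). SESN2, the sestrin that is also an ATF4 target, fell (-2.09) while its family member SESN1 rose.

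In the combination the DEGs of this list were TP53INP1 (2.73), DRAM1 (1.88), NINJ1 (1.27), SUSD6 (1.24), PMAIP1 (-2.59), SESN2 (-1.71) and, in addition, BBC3 (PUMA, a pro-apoptotic BCL2 family member, -1.38). Over all genes 5.87% were DEGs higher and 7.82% lower. PMAIP1 and SESN2 were no longer DEGs without DMSO replicate 1, PTCP replicate 1 or PTCP replicate 2, with adjusted p up to 0.0182. Against palbociclib alone the list had 0 DEGs, beside 0.459% of all genes higher and 0.0424% lower. TIGAR (0.68) and DRAM1 (0.65) rose, beside 2.05% of all genes that rose and 1.44% that fell. Their values without single libraries are not given here. TCP alone called 0 of the 32 in limma at an adjusted p below 0.05, beside 0.29% of all genes higher and 0.141% lower. At an unadjusted p below 0.05 there were 3, beside 8.77% of all genes. CDKN1A (p21), the best known target of p53 in cell cycle arrest, was singled out after its values were seen, outside the rule for named genes. It was at 11.4 and 8.20 TPM in DMSO, 9.85 and 5.04 TPM under TCP, 4.49 and 8.11 TPM under palbociclib and 7.63 and 7.96 TPM in the combination. Its replicates spread widely, and it passed in neither palbociclib (-0.60, adjusted p = 0.187) nor the combination (-0.28, adjusted p = 0.507).

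**Figure D4:**
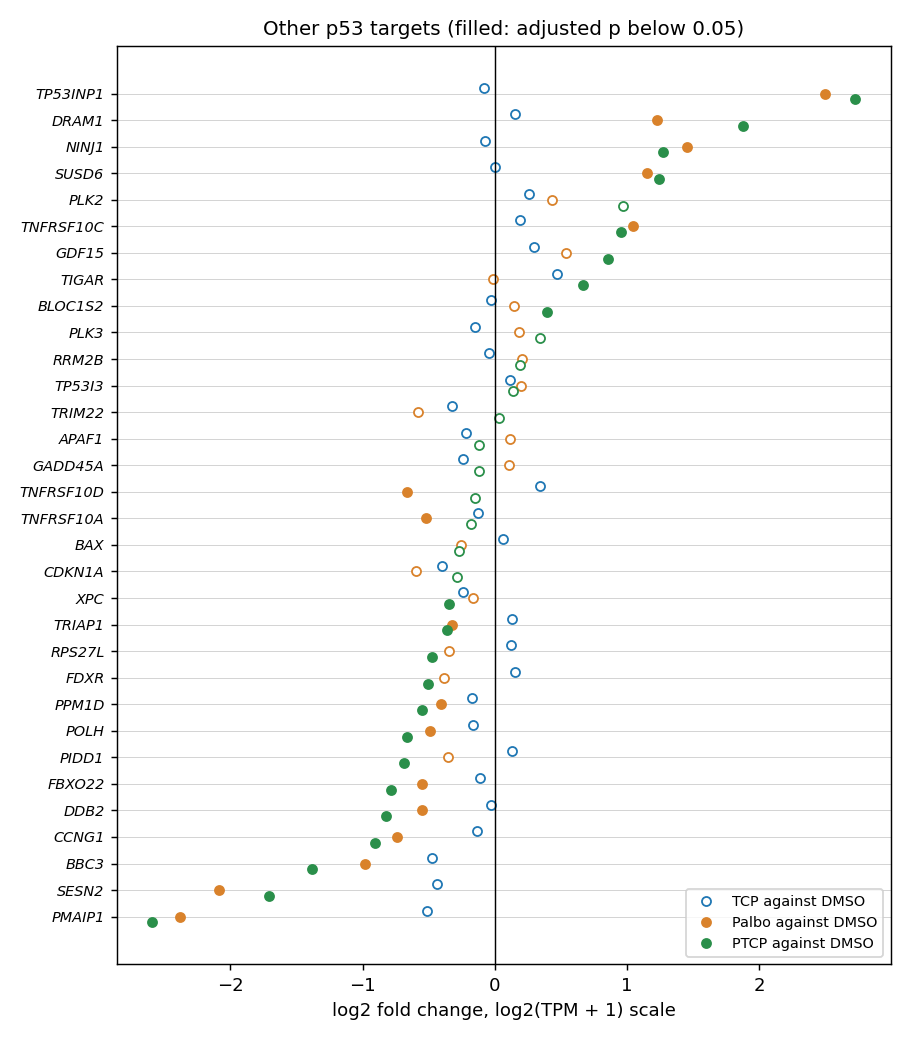
Log2 fold changes against DMSO on the log2(TPM + 1) scale (horizontal axis) of the 32 tested p53 targets outside the 9 members, in order of the change in the combination. Points are estimates from 2 libraries a group under TCP (blue), palbociclib (orange) and the combination (green), filled where the adjusted p is below 0.05. TP53INP1 lies farthest right (2.50 and 2.73) and PMAIP1 farthest left (-2.38 and -2.59), and no TCP point is filled.

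Among 20 tested genes that regulate p53 or its stability, 1 rose and 9 fell under palbociclib, beside 14.8% and 30.2% of all genes, and 2 rose and 10 fell in the combination, beside 15.9% and 37.6%. CHEK1, a checkpoint kinase, was the DEG under palbociclib (-1.55), beside 4.54% of all genes higher and 4.56% lower. In the combination CHEK1 (-2.19), CDKN2A (-1.35, the locus of p16 and of ARF, an inhibitor of MDM2) and HIPK2 (1.34, a kinase that phosphorylates p53) were DEGs. Over all genes 5.87% were DEGs higher and 7.82% lower in the combination. Of 16 tested relatives of the members and genes downstream of the death receptors, 2 rose and 2 fell under palbociclib, and 3 rose and 1 fell in the combination, to be read against the same shares of all genes. CFLAR, which encodes the cFLIP inhibitor of caspase-8 activation at FAS and TNFRSF10B, rose from 15.5 ± 1.45 TPM to 54.4 ± 1.29 TPM under palbociclib (SD, n = 2), a change of 1.75, and by 1.66 in the combination. SESN3, the remaining sestrin, rose by 1.63 and 1.34. BTG3, a relative of BTG2, was a DEG in the combination with the opposite sign (-1.11), but not after quantile normalization. FASLG, the ligand of FAS, was listed at 0 in all 8 libraries, as were BTG4 and ZMAT4.

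The genes with the profile most like that of MDM2 were taken by likeness of the centred log2(TPM + 1) over the 8 libraries, among 11107 genes with a mean of at least 5 TPM. Among the nearest were FNTA (mean absolute difference 0.0182 on the log2 scale), ZNF207 (0.0260), FBXW11 (0.0314) and POM121C (0.0322).

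Other measures moved with the groups, and their part in these results was not tested. The 20 cell cycle genes summed to 3355 to 3871 TPM in DMSO, 3125 to 3803 TPM under TCP, 1642 to 1683 TPM under palbociclib and 1186 to 1264 TPM in the combination. Under palbociclib and the combination 15 and 19 of the 20 were DEGs, all lower, beside 4.56% and 7.82% of all genes. The 13 myeloid markers summed to 407 to 909 TPM in DMSO, 934 to 1939 TPM under TCP, 19580 to 21799 TPM under palbociclib and 39579 to 40367 TPM in the combination. Of these, 9 and 13 were DEGs under palbociclib and the combination, all higher, beside 4.54% and 5.87% of all genes. LYZ alone was at 16431 and 18984 TPM under palbociclib. There 11 of the 13 markers changed upward and 2 downward. The 2 were CD86 (means of 3.06 TPM in DMSO and 1.79 TPM under palbociclib) and CTSS (52.1 and 40.7 TPM). The 15 stromal markers, of which POSTN was at 0 throughout and 3 stayed below 1 TPM, summed to 25.9 and 41.1 TPM in DMSO, 38.2 and 44.3 TPM under TCP, 36.8 and 185 TPM under palbociclib, and 52.2 and 70.3 TPM in the combination. FAS was at 2.95 and 3.14 TPM in the 2 Palbo libraries, whose stromal sums were 36.8 and 185 TPM. Without Palbo replicate 2, the changes against DMSO were 1.58 for BTG2, 1.36 for FAS, 0.63 for SESN1, -1.18 for AEN, -0.50 for MDM4 and -0.57 for PHLDA3. MDM4 and PHLDA3 lost their calls and AEN was no longer a DEG, as given above, while BTG2, FAS and SESN1 kept theirs. What stromal cells contributed to any of these was not tested.

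Of the members 3 overlap an annotated protein-coding gene on the other strand, and the strand setting of the counting is not given in the sources used here. Without strand, reads from such partners could not be told apart. ACTA2, over FAS, was at most 0.646 TPM, and RHOBTB2, over TNFRSF10B, was between 7.38 and 11.97 TPM. Carboxypeptidase M, over MDM2, was at 10.5 and 13.2 TPM in DMSO and 6.47 and 8.97 TPM under TCP. It was at 18.6 and 21.0 TPM under palbociclib and 15.2 and 14.5 TPM in the combination.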

How the data were processed

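The authors deposited TPM values, 1 column per library, each summing to 1000000, so read depth is unknown. Per the labels and the study's methods, libraries from a stranded mRNA kit were aligned to hg19 with Subread, counted with featureCounts 1.6.4 and converted to TPM, with SAMtools 1.9 and, for the study's own tests, DESeq2 1.26.0. The annotation, gene lengths and strand setting are not given in the sources used here. All 8 libraries entered limma 3.58.1 (R 4.3.3) on log2(TPM + 1) with a variance trend, 1 coefficient a group and 4 residual degrees of freedom, over 14151 of 26364 genes that reached 1 TPM in at least 2 libraries, with Benjamini-Hochberg adjustment over all of them. The DEG thresholds are those of the study. Intervals cover the spread between libraries. With 2 against 2 libraries an exact permutation test cannot go below p = 0.333, so none was used. Same-numbered replicates deviated together, with correlations from 0.169 to 0.491 in all 6 pairs of groups; this pairing is known from the values alone, and the block is an alternative. The fit was tested on simulated data.

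The members and lists were chosen with earlier results of these data known. Named were all 9 members, the DEGs of each list (up to 8 by size), relatives as listed, and the 5 genes most like MDM2, of which 1 is not reported here. COP1, in the list of p53 regulators, had no row under that symbol and was not analysed here. Start-site windows came from RefSeq tables, which hold none for PHLDA3 and TNFRSF10B.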

Additional observations from a re-analysis of the deposited data

How the results depend on the processing

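Alternatives covered the pseudocount (0.1), the filter, quantile and median-ratio scaling, the groups fitted, the variance trend, the replicate block and each library left out, where a lone library is assumed to vary like the others. For single members 774 values kept direction and side of the threshold, 39 lost a call, 13 gained one and 23 changed sign, none of these 23 being called. Counting an adjusted p below 0.05 at any fold in place of DEGs gave 6 members under palbociclib and 7 in the combination. It gave 1 for the combination against palbociclib and 6 against TCP. The other p53 targets numbered 16, 21, 2 and 19 of 32 tested. Of all genes 14.8% rose and 30.2% fell under palbociclib, and 15.9% and 37.6% in the combination. Against palbociclib alone these shares were 2.05% and 1.44%, and against TCP alone 16.5% and 33.8%. With no filter on low values, 1 member was a DEG in the combination against DMSO and 1 against TCP. The latter was also 1 with only the groups compared and 4 (2 higher, 2 lower) with the pseudocount of 0.1. Without each library in turn, DEGs among the members numbered 2 to 3 under palbociclib and 1 to 2 in the combination, against DMSO and against TCP alike, and other p53 targets 4 to 7, 5 to 7 and 4 to 8. The cause of these shifts was not tested, beyond the fewer libraries in each fit. The shares of all genes in these altered fits are not given here. In the full fit 4.54% of all genes were DEGs higher and 4.56% lower under palbociclib. In the combination these were 5.87% and 7.82% against DMSO, and 5.46% and 6.7% against TCP.

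The replicate block left the members' DEGs at 3 under palbociclib, 2 in the combination and 0 against palbociclib alone, and beyond the 4 calls of FAS, TNFRSF10B and MDM2 given in the report it changed no call of a member. AEN under TCP read 0.00101 after quantile normalization, and without 1 library ran from -0.31 to 0.22. MDM2 read 0.0252 after median-ratio scaling in the combination against DMSO, and 0.0208 (quantile) and 0.0303 (median-ratio) against palbociclib. Without 1 library, the changes under TCP ran from -0.0601 to 0.0925 for MDM2, -0.14 to 0.17 for MDM4, -0.0534 to 0.26 for ZMAT3 and -0.0657 to 0.42 for TNFRSF10B. TNFRSF10B under palbociclib ran from -0.0397 to 0.25, and PHLDA3 in the combination against palbociclib from -0.11 to 0.15. The interactions ran from -0.13 to 0.0242 for MDM2, -0.34 to 0.18 for AEN, -0.13 to 0.18 for ZMAT3 and -0.14 to 0.0607 for SESN1. FAS was not tested under a filter on a mean of 5 TPM, and the interaction was not run with only the groups compared.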
